A study of Homo sapiens with 18 samples.

Results

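This report describes 10 amino acid transporter genes, SLC7A11, SLC7A5, SLC3A2, SLC7A1, SLC38A2, SLC38A1, SLC1A5, SLC1A4, SLC6A9 and SLC7A3, in VCaP cells. They were taken by name from a count table of 22034 Ensembl genes, where all 10 were found. VCaP is a prostate cancer cell line in which the TMPRSS2:ERG fusion drives high expression of ERG, an ETS family transcription factor. Ribosomal RNA-depleted total RNA was sequenced in 18 libraries, 3 in each of 6 groups. VCaP cells that carry an inducible short hairpin against ERG (shERG, in a pLKO-Tet-on vector) were given 1 µg/mL doxycycline to switch the hairpin on (shERG-Dox) or vehicle, labelled as DMSO (shERG-vehicle). Parental VCaP cells were given DMSO or 50 µM PBITE-1, a small molecule described as binding the PNT domain of ERG, for 4, 8 or 12 h. The duration of the doxycycline and DMSO treatments of these libraries is not given in the sources used here. No doxycycline-treated cells without the ERG hairpin are among the groups, so that doxycycline and hairpin cannot be told apart, and the 3 PBITE-1 times share the same 3 DMSO samples.

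Amino acid transporters of the SLC families carry amino acids across the plasma membrane, some as exchangers and some driven by the sodium gradient. SLC3A2 (CD98) is a single-span heavy chain that pairs with several light chains, among them SLC7A11, which imports cystine in exchange for glutamate and thereby feeds glutathione synthesis, and SLC7A5, which imports large neutral amino acids. Many of these genes belong to the amino acid response, in which the transcription factor ATF4 is translated more when eIF2α is phosphorylated, and SLC7A11 is also a known target of NFE2L2 (NRF2), the factor of the antioxidant response.

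Library totals ranged from 11308600 to 17483423 counts, and levels are given as CPM, the count of a gene scaled to its library's size, with the TMM method correcting sizes across all 18 libraries. ERG itself was at 431, 419 and 407 CPM in shERG-vehicle and at 156, 157 and 149 CPM in shERG-Dox. Its mRNA fell by 1.44 on the log2 scale (SE 0.04, limma-voom adjusted p = 3.29e-22). In parental cells ERG was at 294, 304 and 312 CPM in DMSO and at 90.5 to 104 CPM after 12 h of PBITE-1 (log2 fold change −1.58). All 10 prostate luminal markers chosen for the line had counts in each library. Their summed level was 9498 to 9714 CPM in shERG-vehicle, 5438 to 5648 in shERG-Dox, 6808 to 6942 in DMSO and 2757 to 3091 at 12 h, so that it was lower with either treatment. Of 8 markers of other cell types, PTPRC, COL1A2, DCN and CD3E had at most 4 counts in any library. COL1A1 was at 1.02 to 1.66 CPM in DMSO and 4.27 to 7.35 CPM at 12 h. In the shERG line it was at 0.822 to 1.69 CPM with vehicle and 4.88 to 5.60 CPM with doxycycline. PECAM1 had 1 count in each DMSO library and 19 to 26 at 12 h, and LYZ had 3 to 10 and 2 to 7. The summed level of those 8 markers was 35.7 to 39.7 CPM in shERG-vehicle, 64.6 to 65.6 in shERG-Dox, 48.8 to 52.5 in DMSO and 27.9 to 33.2 at 12 h. Without ALB the sums were 1.07 to 1.83, 5.40 to 6.04, 1.28 to 2.15 and 6.27 to 9.43 CPM. ALB thus made up most of them, and the part of either marker list in the results was not tested.

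In the untreated parental line the transporters spanned a wide range of levels. Per kilobase of merged exons, SLC38A1 (56.8 ± 1.23 CPM per kb, SD, n = 3) and SLC38A2 (43.6 ± 1.34) led, followed by SLC1A5 (38.5 ± 2.17) and SLC7A1 (33.8 ± 0.631). SLC3A2 (7.63 ± 0.294), SLC1A4 (6.84 ± 0.450) and SLC7A11 (3.59 ± 0.484) were lower. SLC6A9 (0.399 ± 0.0622) and SLC7A5 (0.0410 ± 0.0158) were lowest among those tested. SLC7A5 thus rested on 2 to 4 counts per DMSO library. SLC7A3, an arginine transporter, had 1 count in 1 DMSO library and 0 in the other 17 libraries. A count of 0 allows up to 3 counts, which is 0.179 to 0.276 CPM depending on the library. SLC7A3 did not pass the filter on low counts, so 9 of the 10 genes were tested. Lengths matter for this order, because the merged exons of SLC3A2 (5178 bp) are longer than its longest annotated transcript (2222 bp), over which its DMSO level was 17.8 CPM per kb.

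Most of the transporters fell in shERG-Dox cells, and all 9 that were tested rose with PBITE-1 by 8 h. In shERG-Dox against shERG-vehicle, 8 of 9 were lower at adjusted p below 0.05, as were 35.3% of all 14164 genes tested. Of the 8, 4 were also past a 2-fold change, a rule that called 7.19% of all genes lower. With upper-quartile scaling or library size only 2 passed it, without SLC7A1 and SLC1A5 (log2 −0.78 and −0.77 by library size only), and with at least 10 counts in every sample 1 did. The median log2 fold change of the 9 was −1.03, against 0.02 over all genes. All 9 were lower without overlap between the samples of both groups, a pattern that 36.4% of all genes showed. SLC7A5 did not pass the test, and none was higher (35.1% of all genes).

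With PBITE-1, 5 of 9 transporters were higher at 4 h (background 26.4%), 9 of 9 at 8 h (35.9%) and 9 of 9 at 12 h (39.4%). None was lower at any time at adjusted p below 0.05, where 24.7%, 37.0% and 39.4% of all genes were. Samples lay above those of DMSO without overlap for 7, 9 and 9 transporters and for 26.9%, 35.4% and 37.6% of all genes. Past 2-fold, 3 of 9 were higher at 4 h, 6 at 8 h and 6 at 12 h, against 7.28%, 14.9% and 17.1% of all genes. Their median log2 fold changes at these times were 0.95, 2.15 and 2.41. The median of all genes stayed within −0.02 to −0.01 at the 3 times. In bulk RNA, fewer cells of a kind and less RNA per cell cannot be told apart.

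**Figure D1:**
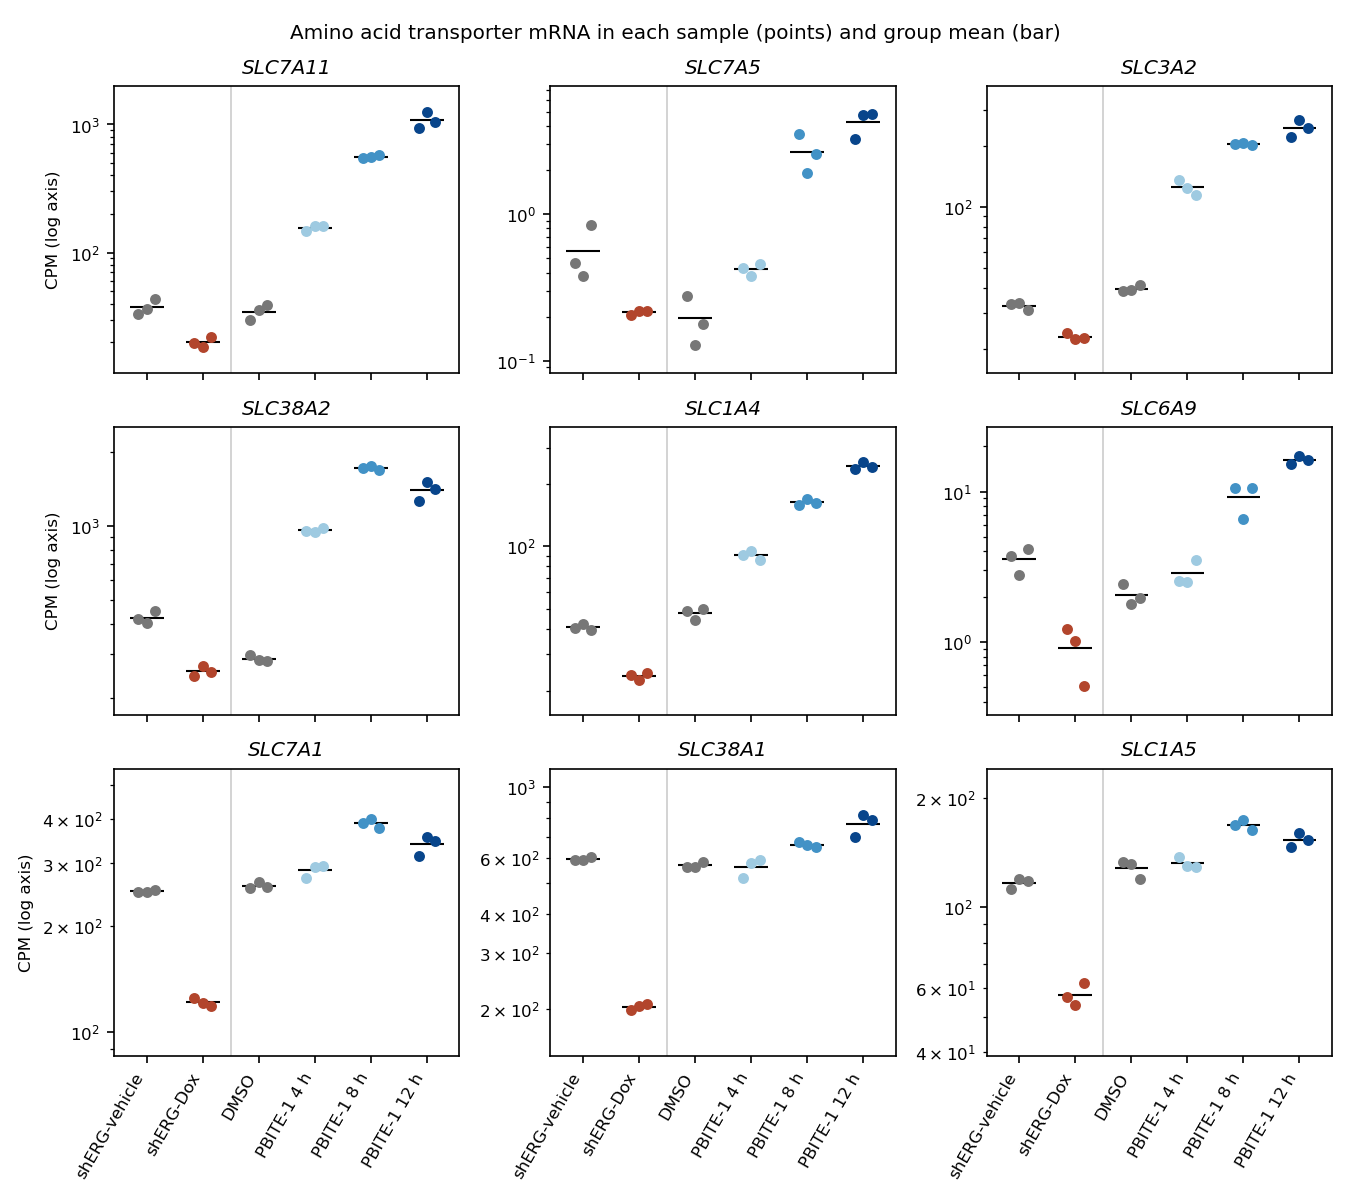
Level of each tested transporter in every library, in CPM on a log axis that differs between panels; points are samples and bars are group means, and a grey line separates the shERG line from parental cells. SLC7A11 runs from 18.3 CPM in the lowest shERG-Dox sample to 1245 CPM in the highest 12 h sample, and SLC38A1 moves little in the parental groups.

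SLC7A11, the cystine importer, had the largest response to PBITE-1 of the group. It was at 29.6, 35.6 and 38.7 CPM in DMSO, 147, 161 and 162 CPM at 4 h, 545, 558 and 578 CPM at 8 h, and 935, 1245 and 1054 CPM at 12 h. No sample of any time overlapped the time before it. Against DMSO, SLC7A11 was 4.59-fold higher at 4 h (log2 2.20, SE 0.10, adjusted p = 6.66e-21), 16.5-fold at 8 h and 31.8-fold at 12 h (log2 4.99, SE 0.09, adjusted p = 1.28e-34). By log2 fold change it ranked 76 among the 14164 genes at 12 h. In the shERG line SLC7A11 went the other way, from 33.3, 36.2 and 43.2 CPM in shERG-vehicle to 19.5, 18.3 and 22.1 CPM in shERG-Dox. That was a fall of 0.91 on the log2 scale (SE 0.09, adjusted p = 2.39e-09). The antisense gene SLC7A11-AS1 covers 8.97% of the SLC7A11 exon bases, and whether counting used strand is not given in the sources used here.

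SLC3A2, the shared heavy chain, rose less than SLC7A11, also from 8 to 12 h (log2 0.27 against 0.95). It was at 38.5, 38.8 and 41.3 CPM in DMSO, 135, 125 and 115 CPM at 4 h, 204, 206 and 203 CPM at 8 h and 220.5, 269 and 245 CPM at 12 h. The 4 groups did not overlap. The increase over DMSO was 3.19-fold at 4 h (log2 1.67, SE 0.07, adjusted p = 5.98e-22), 5.26-fold at 8 h and 6.35-fold at 12 h. In shERG-Dox it was at 23.8, 22.3 and 22.6 CPM against 33.1, 33.6 and 31.0 CPM in shERG-vehicle. This log2 change of −0.51 (SE 0.08, adjusted p = 1.38e-06) was the smallest fall among the 8 genes that fell.

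SLC7A5 (LAT1), the large neutral amino acid importer and another partner of SLC3A2, was barely detected before treatment. It had 4, 2 and 3 counts in DMSO, 5, 5 and 6 at 4 h, 59, 27 and 28 at 8 h and 43, 71 and 70 at 12 h. The 8 h and 12 h samples overlapped with each other, and all of them lay above the DMSO samples. The 4 h sum, scaled by depth, was 2.20 times that of DMSO (exact 95% interval 0.914 to 5.64). The ratio was 14.3 at 8 h (interval 7.25 to 32.0), and for 12 h it was 22.4 (11.6 to 49.8). These intervals cover counting error only. In the limma-voom fit SLC7A5 rose at 8 h (log2 3.66, SE 0.53, adjusted p = 9.41e-08) and 12 h (log2 4.34, SE 0.51, adjusted p = 9e-10), but not at 4 h (adjusted p = 0.151). The shERG-vehicle libraries held 6, 6 and 12 counts and the shERG-Dox libraries 3 each. The ratio of 0.382 (0.156 to 0.850) did not pass the test in the fit (adjusted p = 0.0616). Of its near copies, SLC7A5P2 had 45 counts in all DMSO libraries and 80 at 12 h (log2 1.07, adjusted p = 0.0152), and SLC7A5P1 had at most 10 counts per library. How reads were split between these copies is not given in the sources used here.

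Because a light chain needs its heavy chain at the membrane, their mRNA levels per kilobase are set side by side. The ratio of SLC7A11 to SLC3A2 was 0.413, 0.493 and 0.504 in DMSO and 2.28, 2.49 and 2.31 at 12 h. Dividing by the longest transcript in place of merged exons moved the mean ratio from 0.470 to 0.202 in DMSO and from 2.36 to 1.01 at 12 h. The change of the ratio, 5.03-fold, does not depend on that choice. In the shERG line the same ratio was 0.541, 0.578 and 0.749 in shERG-vehicle and 0.440, 0.442 and 0.525 in shERG-Dox. For the light chains outside the 10 genes, SLC7A8 (LAT2) rose at 12 h (log2 1.45, SE 0.17) and in shERG-Dox (log2 1.53, SE 0.18). SLC7A6 (y+LAT2), chosen for its known pairing with SLC3A2 after its values were seen, fell from 9.07 to 4.72 CPM per kb at 12 h and from 11.5 to 6.30 in shERG-Dox. SLC7A7 and SLC7A10, the remaining partners on the list, had at most 7 counts in any library.

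**Figure D2:**
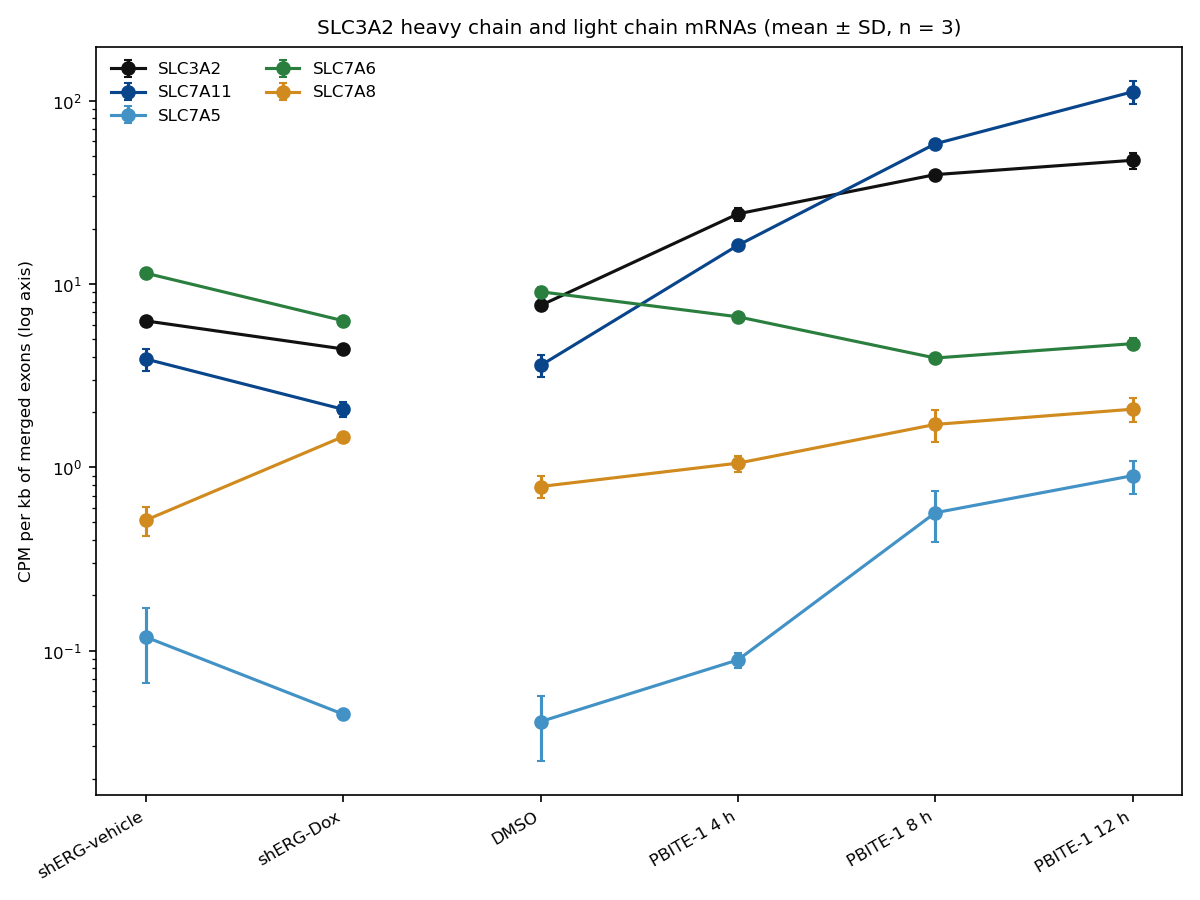
CPM per kb of merged exons (log axis) of the heavy chain SLC3A2 and 4 light chains in the 6 groups; points are means and bars SD over 3 samples, and lines join groups of the same cell line. SLC7A11 lies below SLC3A2 in DMSO (3.59 against 7.63) and above it at 12 h (112 against 47.3), an order that depends on the exon length used for SLC3A2, while SLC7A6 declines.

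The sodium-coupled neutral amino acid transporters SLC38A2 (SNAT2) and SLC38A1 (SNAT1), both carriers of glutamine and other small neutral amino acids, responded unequally. SLC38A2 was at 298, 283 and 282 CPM in DMSO, 954, 946 and 978 CPM at 4 h, 1710.1, 1749.9 and 1692 CPM at 8 h and 1264, 1507 and 1415 CPM at 12 h. It peaked at 8 h, with no overlap between the 8 h and 12 h samples. SLC38A2 was 3.38-fold above DMSO at 4 h (log2 1.76, SE 0.04, adjusted p = 8.51e-30), 6.08-fold at 8 h and 4.98-fold at 12 h, and fell by 0.29 on the log2 scale from 8 to 12 h (adjusted p = 5.32e-09). In shERG-Dox it was at 244, 268 and 253 CPM, below the 416, 401 and 450.0 CPM of shERG-vehicle (log2 −0.73, SE 0.04, adjusted p = 3.11e-15).

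SLC38A1, the more abundant of the pair in DMSO, was at 562, 562 and 583 CPM there and at 519, 579 and 589 CPM at 4 h. These groups overlapped, with a log2 fold change of 0.00 (SE 0.04, adjusted p = 0.969). It rose later, to 672, 656 and 649 CPM at 8 h (1.18-fold, adjusted p = 3.76e-06) and 699.7, 819 and 787 CPM at 12 h (1.39-fold, adjusted p = 3.35e-13). In the shERG line its levels were 591, 589 and 604 CPM with vehicle and 198, 204 and 208 CPM with doxycycline. This 2.93-fold fall (log2 −1.55, SE 0.03, adjusted p = 3.25e-24) had the lowest p-value among the 9 genes. Per kilobase, the ratio of SLC38A2 to SLC38A1 lay between 0.734 and 0.804 in DMSO, between 3.86 and 4.05 at 8 h and between 2.73 and 2.79 at 12 h. It was 1.03 to 1.13 in shERG-vehicle and 1.85 to 2.00 in shERG-Dox.

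SLC1A5 (ASCT2) and SLC1A4 (ASCT1), exchangers of neutral amino acids such as glutamine for the former and serine and alanine for both, formed a similarly unequal pair. SLC1A5 was at 133, 131 and 119.9 CPM in DMSO, 138, 130.3 and 129 CPM at 4 h, 169, 174 and 163 CPM at 8 h and 146, 160.1 and 153 CPM at 12 h. Only the 4 h samples overlapped those of DMSO. The log2 fold change of 0.07 at 4 h did not pass the test (adjusted p = 0.248), while those of 0.43 at 8 h (adjusted p = 1.96e-10) and 0.30 at 12 h (adjusted p = 4.37e-07) did. With ERG knockdown SLC1A5 fell from 113, 119.8 and 118 CPM to 56.7, 53.8 and 61.8 CPM (2.04-fold, adjusted p = 1.56e-15). An antisense gene, AC008622.2, covers 23.4% of its exon bases.

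SLC1A4 rose at each step. Its samples were at 48.5, 43.9 and 49.9 CPM in DMSO and at 90.8, 95.4 and 85.5 CPM after 4 h of PBITE-1. After 8 h they were at 159, 169 and 162 CPM, and after 12 h at 237, 256 and 243 CPM. No groups overlapped. It was 1.94-fold above DMSO at 4 h (adjusted p = 2.69e-16), 3.51-fold at 8 h and 5.32-fold at 12 h (log2 2.41, SE 0.06, adjusted p = 1.72e-31). In shERG-Dox SLC1A4 was at 23.8, 22.5 and 24.3 CPM against 40.2, 42.2 and 39.2 CPM in shERG-vehicle (log2 −0.79, SE 0.07, adjusted p = 2.85e-10). The ratio of SLC1A4 to SLC1A5 per kilobase was 0.161 to 0.200 in DMSO and 0.763 to 0.779 at 12 h, and 0.160 to 0.171 against 0.189 to 0.202 in the shERG line. For the 3 ratios of paired genes, 12 contrasts were tested by a two-sided exact permutation test. In each of them the groups did not overlap and p was 0.1 (0.1 after adjustment), the smallest value that 3 against 3 samples allow.

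SLC7A1 (CAT1), a carrier of arginine and other cationic amino acids, moved little with PBITE-1. It was at 256, 265 and 258 CPM in DMSO, 273, 293 and 295 CPM at 4 h, 391, 402 and 377 CPM at 8 h and 316, 357 and 347 CPM at 12 h. Each time lay above DMSO without overlap, at 1.12-fold (adjusted p = 0.00125), 1.53-fold (adjusted p = 1.97e-16) and 1.35-fold (adjusted p = 5.42e-12). Doxycycline took it from 249, 249.9 and 252 CPM to 125, 121 and 118 CPM, a 2.06-fold fall (log2 −1.04, SE 0.04, adjusted p = 7.48e-19).

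SLC6A9 (GlyT1), the glycine transporter, was low in all groups. It had 35, 28 and 33 counts in DMSO, 30, 33 and 46 at 4 h, 175, 93 and 115 at 8 h and 202, 257 and 237 at 12 h. In CPM the 12 h samples (15.3, 17.2 and 16.3) lay above all 8 h samples (10.5, 6.59 and 10.6). SLC6A9 passed the test at 8 h (4.45-fold, log2 2.15, SE 0.24, adjusted p = 2.1e-10) and at 12 h (8.11-fold, log2 3.02, SE 0.23, adjusted p = 3.79e-15) but not at 4 h (log2 0.50, SE 0.29, adjusted p = 0.155). In shERG-vehicle it had 48, 44 and 59 counts and in shERG-Dox 18, 14 and 7. This fall of 1.96 on the log2 scale (SE 0.34, adjusted p = 1.52e-05) was the largest of the group in size, with the largest error among those called. CCDC24, on the opposite strand, shares 7.83% of the SLC6A9 exon bases and had 46 to 139 counts.

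**Figure D3:**
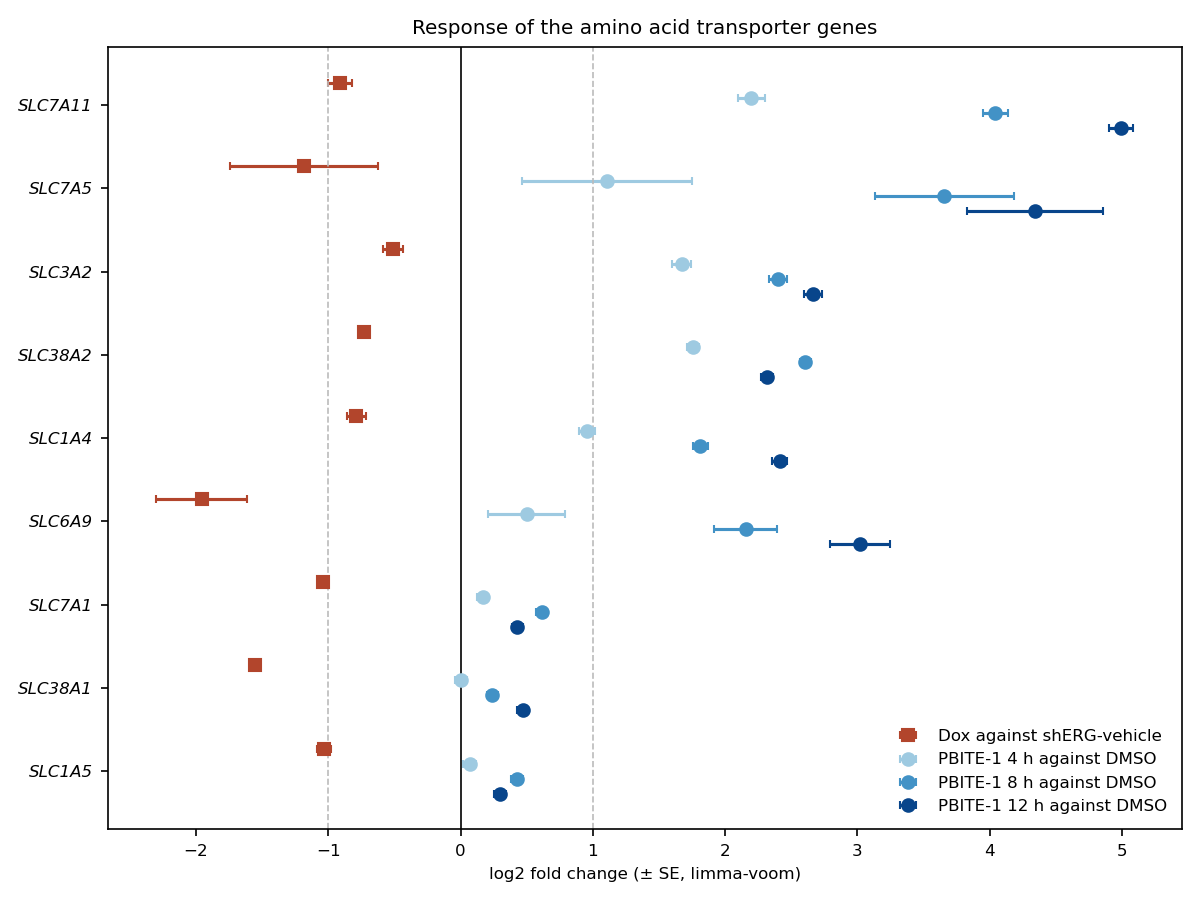
log2 fold change (x axis, ± SE of the limma-voom fit) of the 9 tested transporters in shERG-Dox against shERG-vehicle (squares) and after 4, 8 and 12 h of PBITE-1 against DMSO (circles); dashed lines mark a 2-fold change. All squares lie left of 0, and at 12 h 6 genes lie right of the 2-fold line while SLC7A1, SLC38A1 and SLC1A5 lie between 0.30 and 0.47.

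The 9 tested genes shared a direction from 4 to 8 h but not from 8 to 12 h. From 4 to 8 h all 9 rose (background 26.7%), 3 of them past 2-fold (4.43%), namely SLC7A5 (log2 2.55), SLC7A11 (1.84) and SLC6A9 (1.66). From 8 to 12 h, 6 rose further (27.8%) and 3 fell (32.5%), none past 2-fold (3.48% higher and 6.59% lower). The number that fell was near the share of all genes. Those that rose were SLC7A11 (log2 0.95), SLC6A9 (0.87), SLC7A5 (0.69), SLC1A4 (0.60), SLC3A2 (0.27) and SLC38A1 (0.23). SLC38A2 (−0.29), SLC7A1 (−0.19) and SLC1A5 (−0.13) fell. Together the 10 genes held 0.134% of all counts in each DMSO library. Their share was between 0.217% and 0.226% after 4 h, between 0.367% and 0.372% after 8 h and between 0.380% and 0.453% after 12 h. In the shERG line it was between 0.144% and 0.151% with vehicle and between 0.0809% and 0.0832% with doxycycline.

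For all 9 genes, the change with doxycycline in the shERG line and the change after 12 h of PBITE-1 differed. In a fit over all 18 samples, the PBITE-1 log2 fold change minus the doxycycline log2 fold change was above 1 at adjusted p below 0.05 for 9 of 9, against 13.0% of all genes. It ranged from 1.29 (SE 0.07, adjusted p = 4.63e-20) for SLC1A5 to 5.86 (SE 0.17, adjusted p = 1.19e-30) for SLC7A11. Of the 9 genes, 8 were both lower in shERG-Dox and higher at 12 h, against 7.86% of all genes tested. The same held for 1 of 18 other plasma membrane transporters, 6 of 16 enzymes of cystine, glutathione and glutamine metabolism and 6 of 20 regulators of such genes, lists described further on. The lines, the treatments and the durations differ together in this contrast and cannot be told apart.

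**Figure D4:**
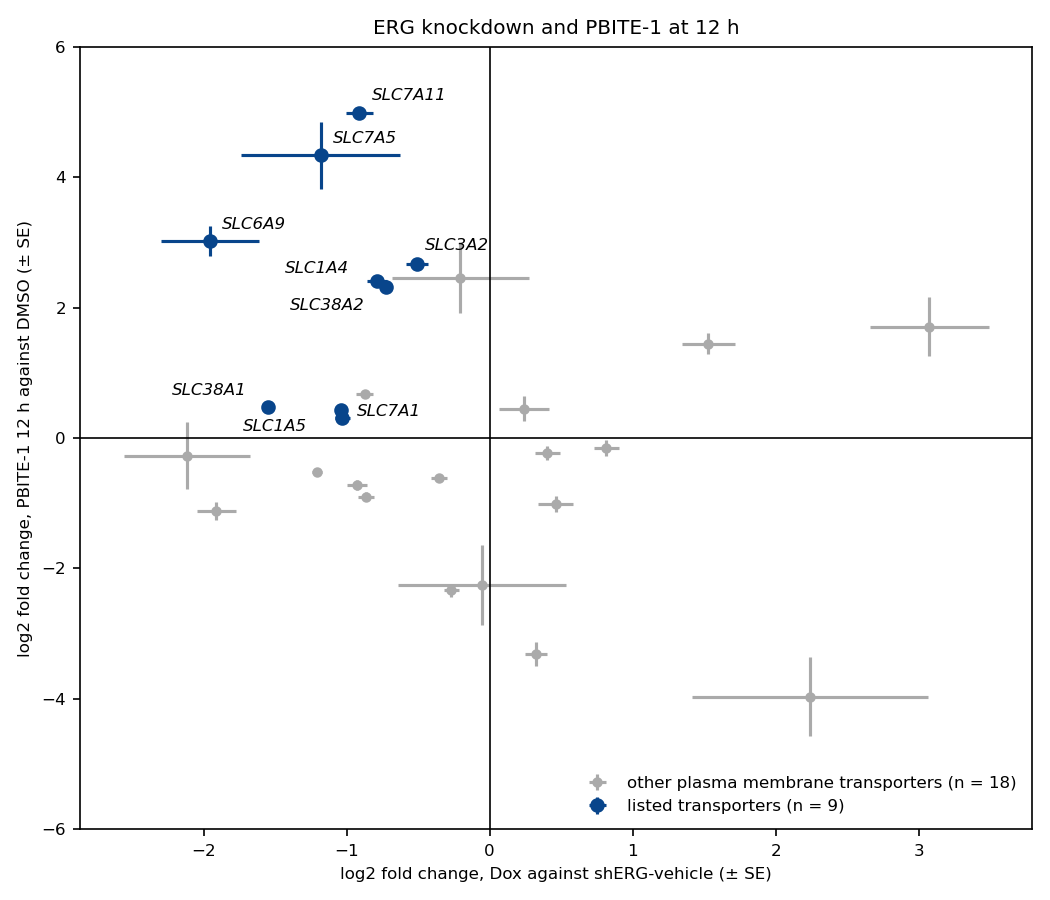
log2 fold change in shERG-Dox against shERG-vehicle (x axis) and at 12 h of PBITE-1 against DMSO (y axis), ± SE, for the 9 tested transporters (dark, named) and 18 other plasma membrane amino acid transporters (grey). The named genes all lie in the upper left quadrant, between −1.96 and −0.51 on the x axis.

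Some transporters differed between the 2 control groups, in numbers near the share of all genes. In shERG-vehicle against DMSO, 2 of 9 were higher (background 23.3%) and 3 lower (23.3%), none past 2-fold (1.19% higher and 5.00% lower). SLC6A9 (log2 0.76, adjusted p = 0.0205) and SLC38A2 (0.55, adjusted p = 3.09e-13) were higher in the shERG line. SLC3A2 (−0.28), SLC1A4 (−0.22) and SLC1A5 (−0.13) were lower. For SLC7A5 the result depended on the test, with log2 1.38 in the limma-voom fit (adjusted p = 0.0565), while it was called higher past 2-fold by DESeq2 (log2 1.57, adjusted p = 0.0297), by the quasi-likelihood test of edgeR (adjusted p = 0.0305) and by limma-voom without the filter on low counts (adjusted p = 0.0304).

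Other amino acid transporters did not share one direction. Of 34 listed, 31 were in the table and 18 were tested. In shERG-Dox 7 were higher (35.1% of all genes) and 8 lower (35.3%), both near those shares, with a median log2 fold change of −0.13. SLC7A8 was the called gene that rose most among those with a mean count of at least 50, and SLC43A1 (LAT3, log2 −1.91, SE 0.13), an importer of large neutral amino acids, and the cationic carrier SLC7A2 (−1.21, SE 0.03) fell most. At 12 h of PBITE-1, 5 were higher and 11 lower (39.4% of all genes each way), with a median of −0.57. SLC3A1 (log2 −3.31, SE 0.19), the heavy chain of the renal cystine transporter, and SLC38A11 (−2.34, SE 0.10) fell most among those with a mean count of at least 50. SLC6A19, a neutral amino acid transporter below that count and named after its values were seen, went from 2.73 ± 0.345 to 0.259 ± 0.277 CPM (log2 −3.97, SE 0.61). It differed between the controls, with 43, 45 and 39 counts in DMSO and 0, 1 and 0 in shERG-vehicle. The shERG-Dox libraries held 4, 3 and 2. SLC3A1 was at 28.9 ± 1.75 CPM in DMSO and 2.97 ± 1.10 CPM at 12 h (SD, n = 3), so that both cystine transporter heavy chains moved, SLC3A2 up and SLC3A1 down.

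Enzymes that use the imported amino acids, 16 genes of cystine, glutathione and glutamine metabolism, were tested in full. In shERG-Dox 2 were higher (35.1% of all genes) and 12 lower (35.3%), with a median log2 fold change of −0.42. GLS2, a glutaminase, was lowest (−1.16, SE 0.10). At 12 h, 10 were higher and 6 lower (39.4% of all genes each way), with a median of 1.24. ASNS, the asparagine synthetase and a known ATF4 target, rose 14.2-fold (log2 3.83, SE 0.05, adjusted p = 7.84e-39). CHAC1, which degrades glutathione and is another known ATF4 target, had 3 counts in all DMSO libraries and 1290 at 12 h, a ratio of 471 (exact 95% interval 161 to 2290). The other control, shERG-vehicle, held 41 counts of CHAC1 and shERG-Dox 32, so the ratio rests on the low DMSO level. GGT1 (log2 −2.07, SE 0.13) and GGCT (−1.02, SE 0.07), which also act in glutathione breakdown, fell.

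Among 20 regulators of such genes, 12 were higher and 8 lower at 12 h (39.4% of all genes each way), with a median log2 of 1.71. In shERG-Dox 4 were higher (35.1% of all genes) and 11 lower (35.3%), with a median of −0.37. ATF4 mRNA was at 317 ± 12.3 CPM in DMSO, 669.8 ± 22.3 at 4 h and 969 ± 18.3 at 12 h (log2 1.10 and 1.65 above DMSO) and fell in shERG-Dox (log2 −0.50, SE 0.04, adjusted p = 3.39e-12). DDIT3 (CHOP), a stress-induced factor downstream of ATF4, rose 13.5-fold at 4 h and 17.1-fold at 12 h, with −0.17 in shERG-Dox (adjusted p = 0.0934). ATF3, a stress-induced factor of the same family as ATF4, went from 0.663 ± 0.370 CPM in DMSO to 288 ± 49.8 at 4 h and 365 ± 63.2 at 12 h, with −0.35 in shERG-Dox (adjusted p = 0.476). TRIB3, a pseudokinase that restrains ATF4, rose later (log2 0.29 at 4 h, 1.86 at 8 h, 2.55 at 12 h) and fell by 0.94 with doxycycline. NFE2L2 rose by a log2 of 0.62, 1.36 and 1.76 at the 3 times and fell by 0.70 in shERG-Dox. MYC, a known activator of SLC7A5 and SLC1A5, fell in both experiments, by 1.95 on the log2 scale in shERG-Dox and by 3.14, 3.63 and 2.97 at 4, 8 and 12 h. MYC and ERG thus fell in both, while ATF4, TRIB3 and NFE2L2 fell in shERG-Dox and rose with PBITE-1. Of the 20 regulators, 6 were lower in shERG-Dox and higher at 12 h, against 7.86% of all genes tested.

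**Figure D5:**
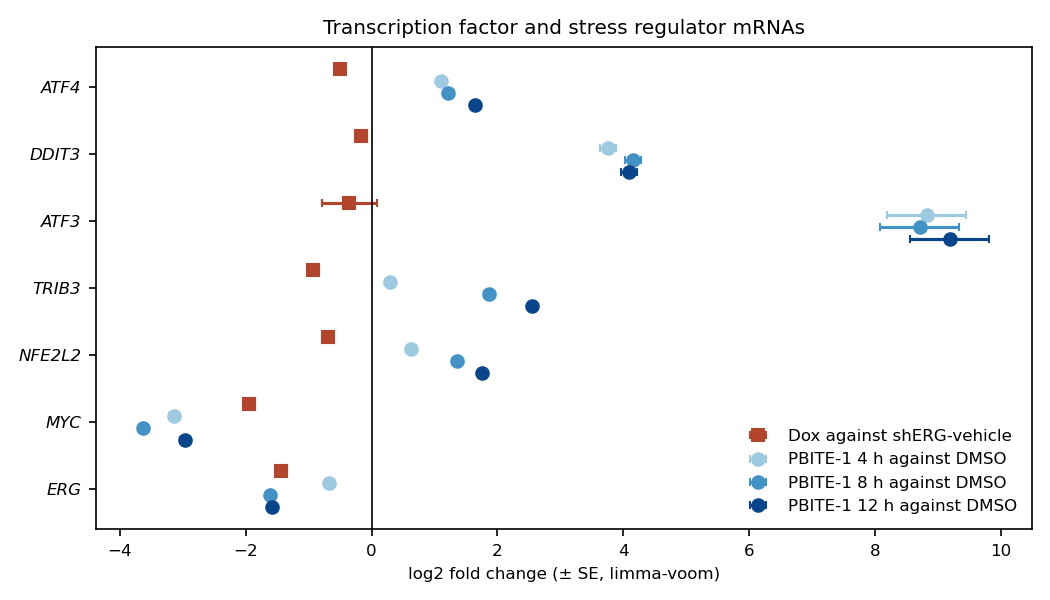
log2 fold change (x axis, ± SE) of 7 regulator mRNAs in shERG-Dox (squares) and at 4, 8 and 12 h of PBITE-1 (circles). ATF3 and DDIT3 lie far to the right at each PBITE-1 time and near 0 in shERG-Dox, and MYC and ERG lie left of 0 in all 4 comparisons.

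Promoter windows of 300 bases, 250 before and 50 after each RefSeq start site (GRCh38.p14), were searched on both strands. The reason was that all tested genes rose by 8 h of PBITE-1, though by unequal amounts. The table holds 14 windows for 8 of the 10 genes (all but SLC7A11 and SLC7A3). TGATGNAA, the C/EBP-ATF composite element that ATF4 dimers are known to bind, was in 5 of the 14 windows and in 3.62% of all 35116 windows. With only the bases before the start site searched, it was in 1 of the 14, that of SLC1A5, and in 3.14% of all. The 30 bases around each match are shown because this element is the one tied to the amino acid response; they read 5′ to 3′ on the strand of the gene, with the match in capitals as written or as its reverse complement.
SLC1A4, chr2:64989381-64989410, plus strand: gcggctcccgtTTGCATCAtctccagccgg
SLC7A1, chr13:29595663-29595692, minus strand: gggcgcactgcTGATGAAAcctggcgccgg
SLC3A2, chr11:62881719-62881748, plus strand: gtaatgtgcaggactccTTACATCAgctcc
SLC38A1, chr12:46266502-46266531, minus strand: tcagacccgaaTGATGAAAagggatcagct
SLC1A5, chr19:46784893-46784922, minus strand: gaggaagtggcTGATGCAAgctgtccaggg

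The first base of the match lay 7 bases before the start site in SLC1A4, 4 before in SLC38A1 and 97 before in SLC1A5, and 7 after in SLC7A1 and 37 after in SLC3A2, counted to the nearest site of the table. In SLC1A4 the match thus ended on the start site and in SLC38A1 it ran across it. Only the start site of SLC7A1 (29595688) was the outer end of the annotated gene. The start sites of the other matches lay inside the gene, as for SLC3A2 (62881699, gene from 62856102) and SLC1A5 (46784814, gene from 46788594). Genes with a match included SLC1A4 and SLC3A2, which were over 5-fold higher at 12 h, and SLC7A1, SLC38A1 and SLC1A5, which were less than 1.5-fold higher at that time. The windows of SLC38A2, SLC7A5 and SLC6A9 held none and these genes rose 4.98-fold to 20.3-fold. Each of them had 1 window, as did SLC7A1, while SLC1A4 and SLC38A1 had 2 and SLC3A2 and SLC1A5 had 3. The number of bases searched was therefore unequal between genes. Of the other strings, the antioxidant response element cores TGACNNNGC and TGAGNNNGC, which differ at the fourth base and so cannot match the same site, were in 4 and 3 of the 14 windows (13.3% and 18.3% of all). The E-box CACGTG was in 2 (7.26% of all), in SLC7A5 and SLC1A5. The ETS site CCGGAAG, the kind of site ERG recognizes, was in none (10.3% of all). A match describes letters only, and its absence says only that these letters are not in this window.

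SLC7A11, SLC3A2 and SLC7A5 were compared with all genes of a mean count of at least 50 for likeness over the 18 samples. The genes whose log2 CPM tracked SLC7A11 most closely were SRGAP2 (Pearson r = 0.997), CEBPG (0.992) and EIF1 (0.992). For SLC3A2 they were MAN2A1, CCNYL1 and IDI1 (0.993 each), and for SLC7A5 they were ACSS2 (0.969), VCPIP1 (0.967) and the alanyl-tRNA synthetase AARS1 (0.967). Within the 9 transporters, r over the same samples ran from 0.611 for SLC7A5 with SLC38A1 to 0.987 for SLC7A1 with SLC1A5, and was 0.987 for SLC7A11 with SLC1A4. Over the 12 parental samples alone these 3 pairs had 0.895, 0.944 and 0.9945. The lowest r there was 0.613, for SLC38A2 with SLC38A1, so that the order of pairs depends on the samples used. The values over 18 samples describe 6 groups of 3 samples that share their treatment, and over these 261 genes passed 0.95 with SLC7A11.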

How the data were processed

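The authors deposited raw counts per Ensembl gene for 18 libraries, with 1 column per library and no pooling. The methods of the study name Kallisto for quantification, whereas the submitters' processing notes name STAR, featureCounts and hg38; which tool made the table, the annotation and the use of strand are not given in the sources used here. Counts split among transcripts or genes of similar sequence can therefore differ from those of uniquely mapped reads. Of 22034 genes, 22011 were matched to a symbol, and positions and exon lengths came from GENCODE 29 (GRCh38). Totals and scaled levels cover every gene in the table.

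Genes were kept by filterByExpr over the 6 groups (14164 genes), scaled by TMM (edgeR 4.0.16) and fitted with limma-voom (limma 3.58.1, R 4.3.3) on the 6 shERG or 12 parental samples, or on all 18 for contrasts between lines. The study's methods name edgeR and limma-voom; the filter, the TMM scaling and the separate fits were chosen here. Tests were two-sided and adjusted by Benjamini-Hochberg over all genes tested. A gene was called 2-fold changed at adjusted p below 0.05 and an absolute log2 fold change above 1. Samples of a group were counted as replicates; replicates differed by more than counting noise (chi-square per degree of freedom 1.69 to 4.94). The study describes the 3 samples of each PBITE-1 time as biological replicates, and a legend gives 3 for PBITE-1 against vehicle. It also says in general that its data come from biological replicates. The shERG libraries are not described singly, so their p-values measure the spread between these samples, which may be technical. Intervals of count ratios are exact and cover counting error only, at 95%. Alternatives were DESeq2 1.42.0, the quasi-likelihood test of edgeR, other scalings, filters, thresholds and sample sets, a replicate block, and leaving out each sample.

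The 10 genes and the comparison lists were chosen with earlier results of these data known. All 10 were to be named in each comparison, with 7 regulators, and in each other list the 2 called genes with the most positive and the 2 with the most negative log2 fold change in shERG-Dox and at 12 h, at a mean count of at least 50. Sequences are from RefSeq (GRCh38.p14).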

Additional observations from a re-analysis of the deposited data

Results flagged for a closer look

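Each of these genes was singled out because its response to PBITE-1 at 12 h differed from its response to doxycycline in the shERG line, by the interaction test of limma-voom over 18 samples with adjusted p below 0.05 and a difference past 2-fold. The difference is the log2 fold change with PBITE-1 minus that with doxycycline, and line, treatment and duration cannot be told apart in it. For the transporters it was 5.86 for SLC7A11, 5.48 for SLC7A5, 3.13 for SLC3A2, 1.43 for SLC7A1, 3.00 for SLC38A2, 1.98 for SLC38A1, 1.29 for SLC1A5, 3.16 for SLC1A4 and 4.93 for SLC6A9. All 9 were higher with PBITE-1. The value of SLC7A5 rests on 3 counts in each shERG-Dox library and 2 to 4 in each DMSO library.

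Among the other listed transporters and carriers the difference was −3.67 for SLC3A1, −2.11 for SLC38A11, −1.52 for SLC25A12 and 1.27 for SLC25A22. Among the enzymes it was 8.92 for CHAC1, 4.33 for ASNS and −1.62 for GGT1. CHAC1 had 3 counts in all DMSO libraries and 41 in all shERG-vehicle libraries. Among the regulators it was 2.11 for ATF4, 4.22 for DDIT3, 9.51 for ATF3, 3.45 for TRIB3, 2.42 for NFE2L2 and −1.07 for MYC.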

How the results depend on the processing

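The counts of transporters past 2-fold at 8 and 12 h against DMSO (6 each) and in the difference between responses (9) were the same under every other normalization, filter, test, sample set and left-out sample that was run, with 2 exceptions. Requiring at least 10 counts in every sample removed SLC7A5 and SLC6A9 from the genes tested and left 4, 4 and 7. With no fold threshold 9 transporters were called higher at 8 h and 9 at 12 h. Normalization mattered most for shERG-Dox: scaling by library size only moved the median of all genes from 0.02 to 0.28 and upper-quartile scaling to 0.18, and with either 2 in place of 4 transporters passed the 2-fold rule lower, SLC7A1 and SLC1A5 dropping below it (log2 −0.78 and −0.77 with library size only). By library size only, 2430 genes were called higher and 506 lower in shERG-Dox, against 1699 and 1019. All 9 transporters stayed lower under these scalings. With at least 10 counts in every sample, 1 passed in shERG-Dox and 1 from 4 to 8 h (3 otherwise). With no fold threshold the counts were 8 lower in shERG-Dox, 5 higher at 4 h, 9 higher from 4 to 8 h, 6 higher and 3 lower from 8 to 12 h, and 2 higher and 3 lower in shERG-vehicle against DMSO.

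In shERG-vehicle against DMSO, SLC7A5 passed with edgeR, with DESeq2, with no filter and with the replicate block, so that 1 gene in place of 0 was called higher. Without the low-count filter SLC7A5 also passed in shERG-Dox (log2 −1.19, adjusted p = 0.0333). Leaving out 1 sample gave 3 to 5 lower in shERG-Dox, 0 to 1 higher from 8 to 12 h and 0 to 1 higher in shERG-vehicle against DMSO. Without shERG-vehicle replicate 2, SLC7A5 passed in shERG-Dox (log2 −1.44) and in shERG-vehicle against DMSO (1.64). Without shERG-Dox replicate 2, SLC1A5 dropped below 2-fold (log2 −0.98). From 8 to 12 h SLC6A9 passed 2-fold without 8 h replicate 1 (1.02) and SLC7A11 without 12 h replicate 1 (1.04).

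SLC38A1 at 4 h, not called, changed sign: −0.022 with upper-quartile scaling, −0.0453 with library size only, −0.0181 with all 18 samples, −0.0025 with only the groups compared, and −0.0297 (without 4 h replicate 3) to 0.0738 (without 4 h replicate 1) when 1 sample was left out. Same-numbered samples did not deviate together (r −0.04 to 0.05 over 45 pairs), so the numbers are shared only as labels, and apart from SLC7A5 above (log2 1.40, adjusted p = 0.0361) the block changed no call of a transporter. The counts of SLC7A5 and SLC6A9 limit their precision.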

Other observations

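Amino acid carriers of mitochondria and lysosomes, 14 genes of which 13 were tested, did not share the direction of the 9 tested transporters this report describes. In shERG-Dox 4 were higher (35.1% of all genes) and 5 lower (35.3%), both near those shares. SLC25A29 (log2 1.20, SE 0.06) was highest and the mitochondrial glutamate carrier SLC25A22 (−1.26, SE 0.12) lowest. At 12 h of PBITE-1, 4 were higher and 7 lower (39.4% of all genes each way), with a median log2 fold change of −0.17. CTNS, which exports cystine from lysosomes, rose (1.17, SE 0.09), and the mitochondrial aspartate-glutamate carrier SLC25A12 (−1.33, SE 0.11) and ornithine carrier SLC25A15 (−1.26, SE 0.10) fell.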
